A study of Mus musculus with 7 samples.

Results

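The zinc finger protein genes whose symbol is Zfp followed by a number were examined for histone H3 lactylation at lysine 18 (H3K18La) at their promoters in the maturing mouse retina. Members were all genes with such a symbol that had a H3K18La peak annotated to the promoter of a protein-coding transcript, from 1000 bases before to 500 bases after the transcription start site. For each gene the peak nearest the start site was taken. This gave 233 Zfp genes among 9956 protein-coding genes with a promoter peak, and the other 9723 genes served as the comparison. The rule used names, positions and the presence of a called peak, so genes without a called H3K18La peak at the promoter were not members, and it used no comparison between ages.

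H3K18La was mapped by CUT&Tag, in which an antibody directs a tethered enzyme to the mark so that nearby DNA is recovered and sequenced. Retinas of C57Bl/6J mice were dissected at postnatal day 4 (P4), P10 or P28 and dissociated with papain, and no animal was treated or carried a transgene according to the labels. Both P4 and P10 had 2 libraries and P28 had 3. According to the labels batch 2 held a single library, replicate 1 of P28, so that leaving it out gives the comparison within batch 1. The libraries of an age are described as biological replicates, but whether each came from separate animals is not stated, so p-values measure the spread between these libraries.

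The values are RPKM, reads divided by the length of the peak and by a normalised library size. The libraries held 199970 to 8274373 reads in peaks, and the P28 libraries were the deepest. Per library the median Zfp promoter held 3 and 2 reads at P4, only 1 and 3 at P10, but 18, 78 and 31 at P28, and intervals given for read ratios cover counting error only because reads carried no molecular identifiers. A peak had to be called in at least 2 replicates of an age to be listed, that is in both libraries at P4 and at P10 if no other replicate was used. This may favour regions seen in the deep P28 libraries, which was not tested. The promoters of all 8 photoreceptor genes on the marker list were called higher at P28 than at P4. The summed RPKM of this list ran from 19.1 to 19.8 in the P4 libraries, from 161.5 to 181.5 at P10 and from 118.6 to 166.6 at P28. That of the 4 of 6 inner retina and glia markers with a promoter peak ran from 6.72 to 7.77 at P4, 19.6 to 23.2 at P10 and 28.3 to 37.9 at P28, with 2 of the 4 called higher at P28. Of 8 markers of pigment epithelium, choroid plexus, vessels, blood and lens, 3 had a promoter peak, with a sum of 5.59 to 9.36 RPKM at P4, 1.40 to 3.41 at P10, where 1 was called lower than at P4, and 3.92 to 4.77 at P28. In a whole retina a change in a cell type's share and a change in signal per cell cannot be told apart.

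Zinc fingers of the C2H2 type are small folds that hold a zinc ion and contact DNA bases, and proteins with arrays of them form the largest group of transcription factors in mammals. Many carry an N-terminal KRAB domain, which binds TRIM28 and through it the histone methyltransferase SETDB1, so that chromatin at retroelements and imprinted regions is silenced. KRAB genes arose by repeated duplication and lie in clusters of related copies. Other Zfp genes encode developmental cofactors, chromatin regulators or RNA-binding proteins, and the shared symbol reflects the finger, not a shared task.

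The members were sorted by the protein their GENCODE coding sequence encodes. A KRAB box was found in 119 members, which had a median of 12 C2H2 fingers. A further 71 members had 5 or more C2H2 fingers and no KRAB match, and 42 had fewer than 5. A coding sequence was not matched for Zfp267. The KRAB match needed 21 of 26 scored residues, and 8 members scored from 16 to 20 and were left in the other classes. In GENCODE, 228 protein-coding Zfp genes carried the KRAB match, and 52.2% of them were members with a promoter peak. The share was 68.1% for the 166 Zfp genes without the match.

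The promoters of the classes differ in their content of CG dinucleotides, and 4 of them are shown because they differ in base composition and carry results below. Each is the 300 bases from 250 before to 50 after the start site in GRCm38, read on the gene's strand, with every CG dinucleotide in capitals. Zfp36l2 (chr17:84187898-84188197, minus strand) had the highest P28 level of the members, Zfp592 (chr7:80993431-80993730, plus strand) is a chromatin regulator, Zfp639 (chr3:32510009-32510308, plus strand) had the second highest P28 level, and Zfp809 (chr9:22225464-22225763, plus strand) encodes a KRAB protein.

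Zfp36l2: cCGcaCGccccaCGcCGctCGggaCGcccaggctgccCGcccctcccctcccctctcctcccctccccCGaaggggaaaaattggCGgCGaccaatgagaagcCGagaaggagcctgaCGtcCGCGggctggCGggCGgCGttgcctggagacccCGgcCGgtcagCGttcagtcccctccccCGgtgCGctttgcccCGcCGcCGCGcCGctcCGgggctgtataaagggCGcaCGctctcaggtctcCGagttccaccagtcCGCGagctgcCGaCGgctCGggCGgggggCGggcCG
Zfp592: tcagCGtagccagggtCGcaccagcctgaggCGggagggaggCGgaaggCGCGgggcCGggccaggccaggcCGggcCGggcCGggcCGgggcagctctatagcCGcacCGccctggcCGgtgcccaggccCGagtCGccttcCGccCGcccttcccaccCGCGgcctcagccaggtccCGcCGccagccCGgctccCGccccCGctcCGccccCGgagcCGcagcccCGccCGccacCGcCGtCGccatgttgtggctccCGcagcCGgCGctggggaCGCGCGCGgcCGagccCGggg
Zfp639: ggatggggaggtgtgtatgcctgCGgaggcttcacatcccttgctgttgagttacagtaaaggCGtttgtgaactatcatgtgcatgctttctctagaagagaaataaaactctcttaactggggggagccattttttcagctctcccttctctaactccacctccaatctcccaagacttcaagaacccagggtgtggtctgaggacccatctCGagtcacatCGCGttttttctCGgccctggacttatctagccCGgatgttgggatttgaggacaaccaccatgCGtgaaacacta
Zfp809: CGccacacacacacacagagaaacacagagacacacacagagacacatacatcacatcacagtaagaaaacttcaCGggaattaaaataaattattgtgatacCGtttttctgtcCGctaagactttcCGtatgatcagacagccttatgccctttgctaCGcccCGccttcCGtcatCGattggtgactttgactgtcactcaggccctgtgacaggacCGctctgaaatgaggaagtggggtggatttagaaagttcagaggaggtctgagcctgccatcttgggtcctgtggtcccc

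The windows of Zfp36l2 and Zfp592 hold 39 and 42 CG dinucleotides and those of Zfp639 and Zfp809 hold 8 and 10. Across members the median GC content of this window was 56.3%, against 60.3% at other promoters. It was 52.7% in KRAB members, 59.0% in members with 5 or more fingers and no KRAB, and 61.3% in members with fewer than 5 fingers. The letters GGGCGG, the core of an SP factor motif, were found on either strand in 32.8% of KRAB members, 40.8% of all members and 62.2% of other promoters. A match is a description of the sequence and not a binding site.

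A second sequence feature was shared by many KRAB promoters. The 12 letters ACTACANTTCCC, searched on both strands, occurred in 28 of 119 KRAB promoters (23.5%), in 5 of 71 promoters of the class with 5 or more fingers and no KRAB (7.04%) and in 1 of 42 with fewer fingers (2.38%). They occurred in 151 of the 9723 other promoters (1.55%) and in 1.86% of all 9956 promoters. The word ACTACATTTCCC was the most frequent 12-letter word in the KRAB promoters, found in 20 of them, and N marks the position at which allowing any letter added most of them. The pattern was thus chosen on the KRAB members after promoters had been read, and duplicated genes share sequence by descent, so its share there is a description and no test was made. As background, letters of this kind form part of the motif described for the zinc finger protein ZNF143, whose mouse gene Zfp143 is itself a member. Of the 34 members with the pattern, 24 read ACTACATTTCCC, 6 ACTACAATTCCC and 4 ACTACACTTCCC. It stood on the strand opposite to the gene in 26 members, and its median position was 29.5 bases before the start site. The following stretches of up to 40 bases show it in capitals, read so that the pattern runs 5′ to 3′. The first 7 come from a single gene cluster on chromosome 13. The last 6 are the KRAB members with the pattern that were called higher at P28, all of them outside that cluster. They were 6 of 28 (21.4%), against 31.9% of KRAB members without the pattern and 33.3% of other promoters, and the difference was not tested.

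Zfp708: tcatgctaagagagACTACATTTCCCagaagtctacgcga
Zfp595: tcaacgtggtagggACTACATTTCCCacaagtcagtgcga
Zfp874a: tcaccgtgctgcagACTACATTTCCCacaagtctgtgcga
Zfp58: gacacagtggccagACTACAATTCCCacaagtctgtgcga
Zfp738: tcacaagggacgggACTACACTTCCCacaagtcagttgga
Zfp85: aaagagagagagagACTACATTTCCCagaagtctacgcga
Zfp273: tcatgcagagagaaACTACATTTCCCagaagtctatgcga
Zfp84: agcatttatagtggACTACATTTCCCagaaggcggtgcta
Zfp790: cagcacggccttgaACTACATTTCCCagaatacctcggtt
Zfp454: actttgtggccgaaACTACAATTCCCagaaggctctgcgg
Zfp661: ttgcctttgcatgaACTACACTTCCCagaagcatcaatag
Zfp879: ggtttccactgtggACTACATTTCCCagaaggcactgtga
Zfp1: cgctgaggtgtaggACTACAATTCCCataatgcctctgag

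In GRCm38 these stretches lie at chr13:67081572-67081611 for Zfp708, chr13:67332586-67332625 for Zfp595, chr13:67451632-67451671 for Zfp874a, chr13:67500528-67500567 for Zfp58, chr13:67683543-67683582 for Zfp738, chr13:67755193-67755232 for Zfp85, chr13:67813735-67813774 for Zfp273, chr7:29768515-29768554 for Zfp84, chr7:29815954-29815993 for Zfp790, chr11:50887652-50887691 for Zfp454, chr2:127584732-127584771 for Zfp661, chr11:50841587-50841626 for Zfp879 and chr8:111643403-111643442 for Zfp1. Of the 13 members of that cluster, 11 carried the pattern. Outside the cluster 17 of 106 KRAB members did (16%).

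Members with the pattern had a median RPKM of 0.62 at P4, 1.55 at P10 and 3.37 at P28, against 1.29, 2.40 and 5.07 in the 199 members without it. Within KRAB members the medians at P28 were 3.30 with and 3.81 without the pattern. At the 151 other promoters with the pattern the P28 median was 4.92, close to the 5.02 of other promoters without it.

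Compared within each library, the median Zfp promoter carried less H3K18La than the median of other promoters, and of the 3 classes the KRAB members stood lowest. The member median of log2(RPKM + 1) minus that of the other promoters was -0.27 ± 0.01 at P4 (SD, n = 2 libraries), -0.27 ± 0.08 at P10 (n = 2) and -0.08 ± 0.02 at P28 (n = 3), below 0 in all 7 libraries. At P4 it was -0.44 with a pseudocount of 0.1 and -0.545 with quantile normalization. For KRAB members the difference was -0.55 ± 0.05 at P4, -0.67 ± 0.15 at P10 and -0.33 ± 0.02 at P28, below 0 in all 7 libraries. At P4 it was -0.95 with a pseudocount of 0.1 and -0.87 with quantile normalization. Members with 5 or more fingers and no KRAB differed from other promoters by -0.02 ± 0.02 at P4, 0.25 ± 0.25 at P10 and 0.24 ± 0.02 at P28. Members with few fingers differed by 0.02 ± 0.14, -0.02 ± 0.11 and 0.15 ± 0.05.

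**Figure D1:**
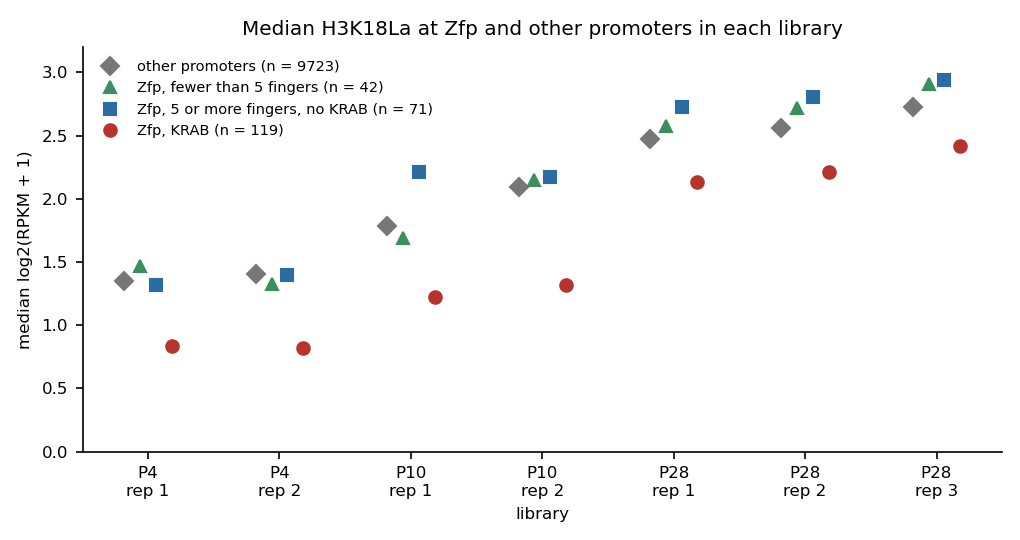
Median log2(RPKM + 1) in each of the 7 libraries for KRAB members (circles), members with 5 or more C2H2 fingers and no KRAB (squares), members with fewer than 5 fingers (triangles) and other protein-coding promoters (diamonds). The KRAB median is the lowest of the 4 in every library, and all 4 medians are higher in the P28 libraries than in the P4 libraries.

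In RPKM, the median KRAB promoter stood at 0.87 at P4, 1.5 at P10 and 3.66 at P28. The class with 5 or more fingers and no KRAB stood at 1.70, 3.67 and 6.12, and other promoters at 1.63, 2.87 and 5.01. At P28, 36 of 119 KRAB members (30.3%) were below the first quartile of all promoters and 12 (10.1%) above the upper quartile. Of the 71 members with 5 or more fingers and no KRAB, 10 (14.1%) were below and 20 (28.2%) above these quartiles.

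Base composition moves with this difference, so the classes were also set side by side within bands of GC content. At 50 to 60% GC, the P28 median was 3.76 RPKM in 64 KRAB members, 5.61 in 49 other members and 4.36 in 3649 other promoters. Above 60% GC it was 3.98 in 17 KRAB members, 6.29 in 53 other members and 5.91 in 4978 other promoters. Below 50% GC it was 3.17 in 38 KRAB members, 6.15 in 11 other members and 3.85 in 1096 other promoters. KRAB members were lowest in each of the 3 bands. Their peaks were also narrower, with a median of 955 bases against 1254 in the class with 5 or more fingers and 1183 at other promoters. GC content was not matched within a band. The part of GC content, width, copy number and uniquely mappable sequence in the difference was not tested.

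Few reads lay behind the early KRAB values. At P4, 86 of 119 KRAB members (72.3%) had 3 reads or fewer in both libraries, against 26 of 71 (36.6%), 12 of 42 (28.6%) and 37.8% of other promoters. At P28 no member was this low in all 3 libraries. Duplicated genes such as the neighbours Zfp729a and Zfp729b may share reads, and this was not tested.

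Between P4 and P28 the mark rose at 81 of 233 Zfp promoters and no Zfp promoter fell (limma, adjusted p under 0.01 over 108253 peaks), whereas scaling to reads in peaks and quantile normalization each called 1 lower. Among other promoters 33.3% were called higher and 0.288% lower, and among all peaks 18.9% were called higher and 4.21% lower, so the 34.8% of members lies near the share of other promoters. The 81 comprised 35 KRAB members (29.4%), 31 with 5 or more fingers and no KRAB (43.7%) and 15 with fewer fingers (35.7%). In the same order, 7.56%, 5.63% and 9.52% were called higher with scaling to reads in peaks. With quantile normalization the shares were 19.3%, 15.5% and 16.7%, so the order of the classes depends on the scaling. The median change of all 233 members was 1.45 on the log2(RPKM + 1) scale and that of other promoters 1.34. With ages at or under 3 reads in every library set to 3 reads, the medians were 1.03 and 1.06, so the order of the 2 groups depends on how low reads are treated. With only those at 0 reads set to 3 reads, they were 1.38 and 1.30.

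The scaling set the size of this change. Reads in peaks made up 16.3% and 17.6% of the normalised library size at P4, 36.1% and 52.1% at P10, and 42.4%, 50.9% and 57.1% at P28. Scaling each library to its reads in peaks called 17 members higher and 1 lower, 7.3% higher against 7.29% of other promoters and 0.429% lower against 3.34%, with a member median of 0.49, and the median of all peaks moved from 0.68 to -0.29. Every P28 library was above every P4 library at 206 members (88.4%), against 79.6% of other promoters, and all P28 libraries were below all P4 libraries at 1 member, against 4.61% of other promoters. This was Zfp189, named after its values were seen, with 3.65 and 4.20 RPKM at P4 and 2.90, 2.72 and 2.60 at P28. Without P28 replicate 1, 39 members were called higher (16.7%, against 17.5% of other promoters), so the order of members and other promoters was not stable. Without P4 replicate 2, which left a single P4 library, the median change was 1.525 in members and 1.36 in other promoters.

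**Figure D2:**
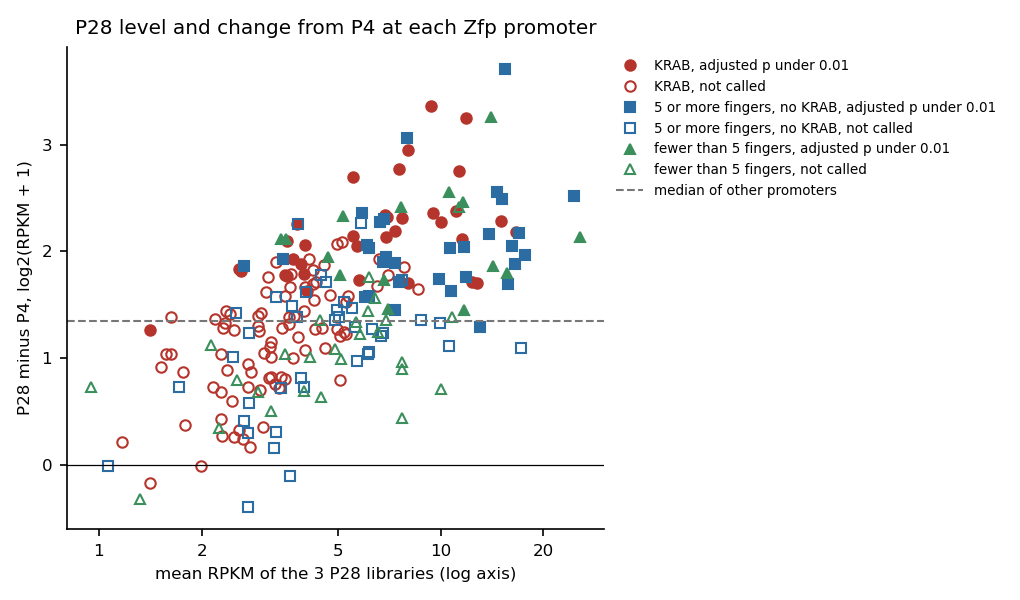
Each point is a Zfp promoter, with its mean RPKM over the 3 P28 libraries on a log axis and its P28 minus P4 difference in log2(RPKM + 1). Colours and shapes give the protein class, filled points the 81 members with an adjusted p under 0.01, and the dashed line the median change of other promoters, 1.34.

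The 8 largest called rises with no overlap between the ages included 5 KRAB genes, beside 119 KRAB genes among all 233 members. Zfp366, which encodes a corepressor known from dendritic cells, had 0.542 and 0 RPKM at P4, 4.30 and 1.88 at P10, and 12.5, 14.8 and 19.0 at P28. All P28 libraries stood above both P10 libraries and these above both P4 libraries. The change from P4 to P28 was 3.71 ± 0.40 (SE; limma adjusted p = 0.000228), and the pooled reads gave a ratio of 50.1, with a 95% counting interval of 13.8 to 415 because only 2 reads were seen at P4. Its peak (chr13:99184989-99186666) begins 166 bases past the annotated start site.

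Zfp503, a developmental repressor of the striatum and eye, had 0.486 and 0.639 RPKM at P4, 5.80 and 5.91 at P10, and 13.5, 12.5 and 16.1 at P28 (chr14:21988846-21989779). The replicates of each age lay close together and the ages did not overlap. It rose by 3.26 ± 0.31 from P4 to P28 (adjusted p = 0.000144) and by 2.13 ± 0.33 from P4 to P10 (adjusted p = 0.00184). Zfp827, which encodes a factor that brings the NuRD complex to telomeres, had no read in either P4 library (chr8:79027991-79028412). It stood at 8.56 and 7.47 RPKM at P10 and at 3.73, 11.2 and 9.0 at P28, where P28 replicate 1 was below both P10 libraries. Against 3 reads per P4 library its P28 mean was at least 2.14-fold higher, and the change was 3.06 ± 0.44 (adjusted p = 0.000759).

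The KRAB genes among the largest rises were low at P4 and differed at P10. Zfp809, whose protein silences murine leukaemia proviruses by binding their primer site, had 0.359 and 0 RPKM at P4, 1.43 and 0.623 at P10, and 8.08, 6.8 and 9.28 at P28 (chr9:22225163-22226428). It rose by 2.95 ± 0.42 from P4 to P28 (adjusted p = 0.000696), while P10 minus P4 was 0.77 ± 0.46 (adjusted p = 0.234). Zfp791 had 0.563 and 0 RPKM at P4, 0 and 0.977 at P10, and 6.5, 7.84 and 8.35 at P28, and rose by 2.77 ± 0.47 (adjusted p = 0.00161). Both were low at P10 as at P4, although 2 reads or fewer per age stand behind these low values.

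Zfp68 had 0.831 and 0 RPKM at P4, 6.60 and 4.32 at P10, and 12.5, 10.8 and 12.3 at P28. Zfp961 had 0.968 and 0.635 at P4, 7.69 and 5.04 at P10, and 8.38, 11.1 and 14.5 at P28. Zfp879, whose promoter carries the shared pattern, had no read at P4, 3.75 and 1.64 RPKM at P10, and 7.08, 10.7 and 10.4 at P28. In these 3 KRAB genes the P10 libraries stood between those of P4 and P28 without overlap. The changes from P4 to P28 were 3.25 ± 0.37, 2.75 ± 0.36 and 3.36 ± 0.41, with adjusted p of 0.000281, 0.000439 and 0.00036.

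**Figure D3:**
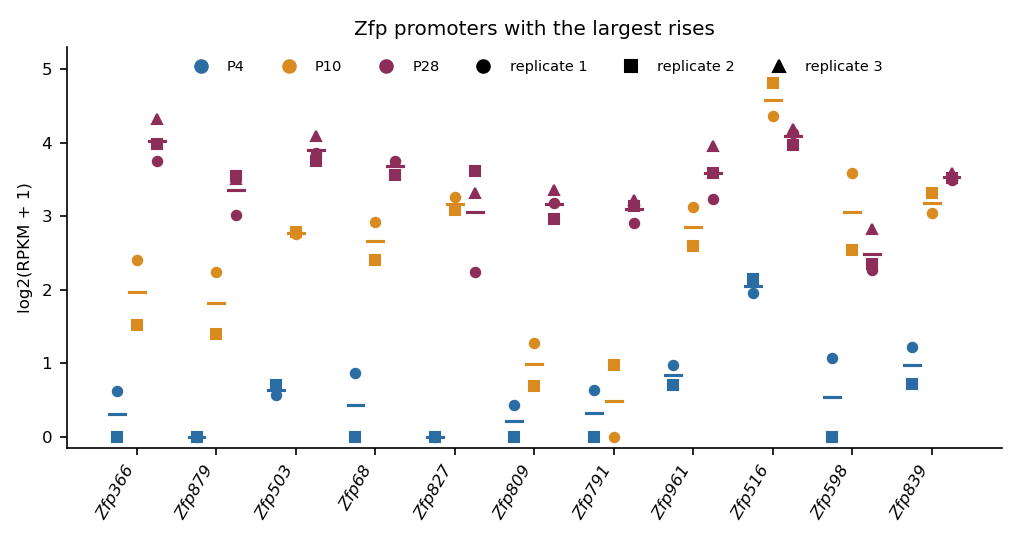
log2(RPKM + 1) in each library for the members with the largest called rises from P4 to P28 and from P4 to P10, with points by age (colour) and replicate (shape) and bars at the mean of an age. The P4 mean is the lowest of the 3 ages for every gene shown, and Zfp516, Zfp598 and Zfp827 have their highest mean at P10.

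A set of 7 members was called higher at P28 under every alternative that was run, each left-out library included, 3% of members against 4.09% of other promoters. They were Zfp366, Zfp503, Zfp536, Zfp661, Zfp68, Zfp839 and Zfp879. Zfp661, a KRAB gene named here after its values were seen, had no read at P4, 2.16 and 2.84 RPKM at P10, and 6.61, 5.23 and 4.76 at P28. Its P28 mean was at least 2.93-fold above 3 reads per P4 library.

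From P4 to P10, 19 of 233 members rose and none fell, 8.15% against 11.6% of other promoters called higher and 0.885% lower (11.4% and 7.34% of all peaks). With only the libraries of these 2 ages in the fit no member was called and no other promoter either, and quantile normalization, leaving out P4 replicate 1 and leaving out P4 replicate 2 each left 3 members. Only 2 of 119 KRAB members were called (1.68%), against 11 of 71 (15.5%) and 6 of 42 (14.3%) in the other classes. At P10, 86 KRAB members had 3 reads or fewer in both libraries, and what rise could be detected at this depth was not tested. The median change was 0.46 in members and 0.55 in other promoters, and it turned to -0.26 and -0.32 when libraries were scaled to their reads in peaks. With ages at or under 3 reads set to 3 reads, the medians on the deposited scale were 0.89 and 0.86, in the opposite order. With scaling to reads in peaks 4 members were called higher and 5 lower, 1.72% and 2.15% against 2.48% and 4.85% of other promoters. Both P10 libraries were above both P4 libraries at 96 members (41.2%), against 46.2% of other promoters, and below both at 13 members, against 9.04%.

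The 5 largest rises from P4 to P10 were at Zfp827, Zfp516, Zfp598, Zfp68 and Zfp839. Zfp516, an activator of the brown fat gene Ucp1, had 2.89 and 3.41 RPKM at P4, 19.5 and 27.1 at P10, and 16.5, 14.7 and 17.2 at P28. Both P10 libraries were above all P28 libraries, and the change from P4 to P10 was 2.53 ± 0.30 (adjusted p = 0.000681), while P28 minus P10 was -0.49 (adjusted p = 0.238). Zfp598, a ubiquitin ligase that senses collided ribosomes, had 1.11 and 0 RPKM at P4, 11 and 4.81 at P10, and 3.84, 4.12 and 6.11 at P28, and rose by 2.52 ± 0.52 to P10 (adjusted p = 0.00546). Its P10 and P28 libraries overlapped. Zfp839 had 1.33 and 0.656 RPKM at P4, 7.27 and 8.95 at P10, and 10.3, 10.4 and 11.1 at P28, and rose by 2.21 ± 0.34 to P10 (adjusted p = 0.00181).

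Between P10 and P28 no member was called, and among all 108253 peaks only 2 were (0.00185%). Without P10 replicate 2, which left a single P10 library, the median change was 0.99 in members and 0.87 in other promoters. At an unadjusted p under 0.05, 115 of 233 members differed (49.4%), against 39.3% of other promoters, and limma-voom on the recovered reads called 10 higher, 4.29% against 4.39% of other promoters. With all libraries the median change was 0.95 in members and 0.73 in other promoters, 1.17 in KRAB members and 0.69 in those with 5 or more fingers and no KRAB. With ages at or under 3 reads set to 3 reads, the medians were 0.19 in members and 0.27 in other promoters, in the opposite order, and -0.0063 in KRAB members. The lowest adjusted p was 0.0113, at Zfp821, likewise named after its value was seen. All P28 libraries were above both P10 libraries at 146 members (62.7%), against 55% of other promoters, and below both at 6 members, against 5.76%. Over the 3 ages together, the moderated F-test called 69 members (29.6%), against 29.3% of other promoters and 24.6% of all peaks.

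The highest promoters at P28 were those of Zfp36l2, Zfp639, Zfp787 and Zfp521, and the ranges of neighbours in this order overlapped except between Zfp639 and Zfp787. Zfp36l2, which encodes a CCCH-type finger protein that hastens decay of mRNAs with AU-rich elements, had 5.56 and 4.59 RPKM at P4, 17.2 and 26.4 at P10, and 24.7, 26.1 and 25.8 at P28 (chr17:84187601-84189808). Its P28 libraries lay close together and P10 replicate 2 lay above all of them. It rose by 2.13 ± 0.27 from P4 to P28 (adjusted p = 0.000399), with 44 reads at P4. The other member of the AU-rich decay list with a promoter peak, Zfp36, had 1.55 and 1.36 RPKM at P4, 4.11 and 1.80 at P10, and 4.48, 6.58 and 8.26 at P28, and its P28 minus P4 difference of 1.57 ± 0.41 did not pass (adjusted p = 0.0134).

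Zfp639, with a low GC content, had 1.96 and 5.66 RPKM at P4, 7.78 and 7.48 at P10, and 22.4, 24.6 and 26.7 at P28. The P28 libraries lay above all others, and the rise was 2.52 ± 0.35 (adjusted p = 0.000637). Zfp787 had 3.42 and 4.11 RPKM at P4, 12.4 and 17.8 at P10, and 14.6, 18.5 and 19.9 at P28, with a rise of 1.96 ± 0.29 (adjusted p = 0.000771) and overlapping P10 and P28 libraries. Zfp521, a cofactor of EBF proteins in neural and blood cells, had 6.38 and 7.62 RPKM at P4, 6.92 and 13.1 at P10, and 9.72, 16.6 and 25.1 at P28. Its P28 libraries were widely spread, and the difference of 1.09 ± 0.40 did not pass (adjusted p = 0.0523).

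At P4 the highest means were at Zfp521 (7.0 ± 0.88 RPKM, SD, n = 2), Zfp41 (5.72 ± 0.36), Zfp277 (5.34 ± 0.45) and Zfp36l2 (5.08 ± 0.68). Both Zfp521 libraries lay above the other 3 genes, whose ranges overlapped, so that their order is not resolved. Zfp277 had 5.02 and 5.66 RPKM at P4 and 6.08, 7.54 and 9.46 at P28, a difference of 0.44 ± 0.31 (adjusted p = 0.265). Zfp41 had 5.46 and 5.98 RPKM at P4 and 8.59, 10.1 and 11.5 at P28, a difference of 0.71 ± 0.31 (adjusted p = 0.093). In both genes the P4 and P28 libraries did not overlap, yet neither passed the test, and both differences were below 0 when libraries were scaled to reads in peaks or quantile normalized. Among the members with most reads at P4, Zfp462, Zfp444 and Zfp654 were called higher at P28, by 1.69 ± 0.29, 1.80 ± 0.29 and 1.29 ± 0.28 (adjusted p = 0.00168, 0.00121 and 0.00574), with 39, 33 and 33 reads at P4. The direction at Zfp654 turned under scaling to reads in peaks (-0.08) and under quantile normalization (-0.18).

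The lowest promoters at P28 were Zfp106 with 0.948 ± 0.17 RPKM (SD, n = 3), Zfp13 with 1.07 ± 0.64 and Zfp551 with 1.17 ± 0.31. Zfp13 had 0.873 and 1.15 RPKM at P4, no read at P10 and 0.336, 1.54 and 1.33 at P28. None of these 3 was called in any comparison of ages.

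**Figure D4:**
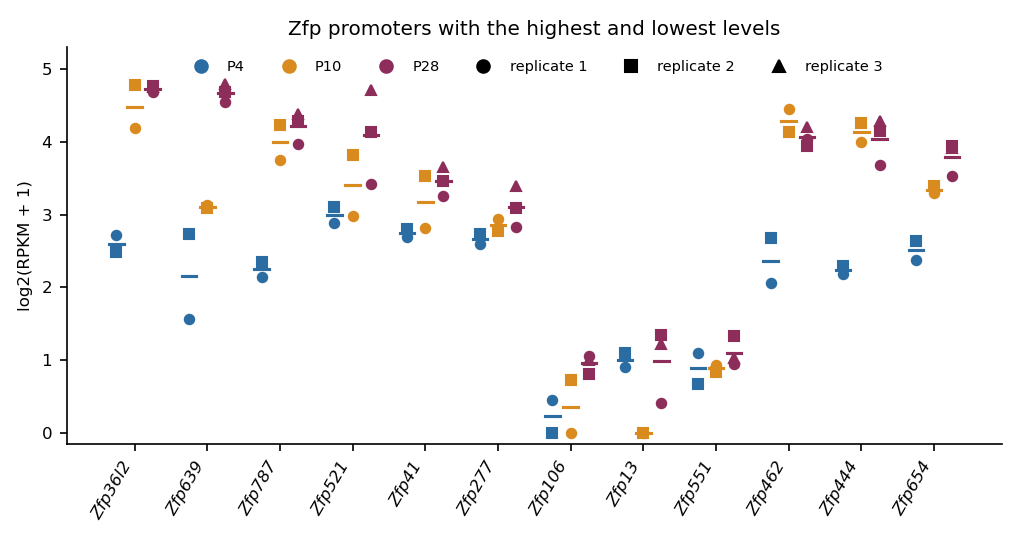
log2(RPKM + 1) in each library for the members with the highest means at P28 or P4, the most reads at P4 or the lowest means at P28, with points by age (colour) and replicate (shape) and bars at the mean of an age. In Zfp41 and Zfp277 every P28 library lies above both P4 libraries, though neither was called, and Zfp106, Zfp13 and Zfp551 lie lowest at P28.

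Among members with known neural and developmental roles, 6 of 12 were called higher at P28 and none lower, beside 33.3% of other promoters called higher. Zfp536, a repressor of retinoic acid signalling in neural precursors, had 1.66 and 1.63 RPKM at P4, 8.24 and 7.19 at P10, and 12.4, 14.9 and 16.7 at P28, in 3 separate ranges. It rose by 2.56 ± 0.29 (adjusted p = 0.000262). Zfp219, a partner of SOX9, had 3.36 and 2.64 RPKM at P4, 5.33 and 9.90 at P10, and 15.7, 17.2 and 18.1 at P28, and rose by 2.17 ± 0.32 (adjusted p = 0.00076). Zfp503, Zfp462, Zfp516 and Zfp281 were the other 4, and Zfp281, known from pluripotent cells, rose by 1.46 ± 0.32 (adjusted p = 0.00616).

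The remaining 6 did not pass. Zfp335, needed for brain growth, differed by 1.33 ± 0.33 (adjusted p = 0.0107), just outside the threshold, and Zfp292 by 1.36 ± 0.38 (adjusted p = 0.0177). Zfp423, a cofactor of EBF and SMAD proteins whose human gene is linked to ciliopathies with retinal degeneration, had 3.38 and 3.88 RPKM at P4, 3.36 and 8.06 at P10, and 1.46, 4.46 and 4.98 at P28. Its ages overlapped, and the difference was -0.10 ± 0.48 (adjusted p = 0.879). Zfp703 had 4.40 and 3.03 RPKM at P4 and 7.62, 7.09 and 8.36 at P28 (0.90 ± 0.35, adjusted p = 0.0642), and Zfp804a had 2.34 and 0.236 at P4 and 2.49, 2.19 and 2.94 at P28. With Zfp521, these were the members of the list not called.

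Among the 6 KRAB genes with known targets at imprints and retroelements, Zfp809 and Zfp568 were called higher at P28, 33.3% as at other promoters. Zfp568, which silences a placental promoter of Igf2, had 0.364 and 0.479 RPKM at P4, 0 and 0.632 at P10, and 5.05, 3.84 and 3.05 at P28, and rose by 1.79 ± 0.44 (adjusted p = 0.00996). Zfp57 and Zfp445 encode the proteins that maintain methylation at imprinted regions. Zfp57 had 2.56 and 0.671 RPKM at P4, 4.06 and 0.887 at P10, and 2.36, 2.14 and 2.33 at P28, with ages that overlapped and a difference of 0.43 ± 0.54 (adjusted p = 0.54). Zfp445 had 0 and 0.789 RPKM at P4 and 3.47, 4.55 and 4.34 at P28 (1.93 ± 0.61, adjusted p = 0.0296). Zfp708 and Zfp932, which act on endogenous retroviruses, differed by 2.09 ± 0.62 and 1.59 ± 0.50 (adjusted p = 0.0231 and 0.0299). Both P4 libraries were below all P28 libraries for each of Zfp445, Zfp568, Zfp708 and Zfp932, from 2 reads or fewer at P4.

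Of the 9 chromatin and transcription regulators on a list, 6 had a promoter peak and 4 of these were called higher at P28, beside 33.3% of other promoters. Zfp592 and Zfp687 encode partners in a complex with ZMYND8. Zfp592 had 3.80 and 3.66 RPKM at P4, 16.1 and 14.5 at P10, and 16.5, 17.0 and 15.9 at P28, and Zfp687 had 1.37 and 1.80, then 7.88 and 7.68, then 5.99, 7.62 and 9.05. In both genes the P10 and P28 libraries overlapped and lay above both P4 libraries, and the mark rose by 1.89 ± 0.25 and 1.71 ± 0.32 to P28 (adjusted p = 0.000524 and 0.00262).

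Zfp410, whose human counterpart is known as a dedicated activator of the CHD4 gene, had 0.937 and 1.23 RPKM at P4, 4.97 and 6.51 at P10, and 6.13, 6.72 and 7.48 at P28, a rise of 1.90 ± 0.33 (adjusted p = 0.00183). Zfp143, an activator of small nuclear RNA and many protein-coding promoters, had 1.81 and 2.38 RPKM at P4, 3.59 and 8.63 at P10, and 10.7, 10.8 and 13.6 at P28, a rise of 2.04 ± 0.37 (adjusted p = 0.00226). Zfp91 and Zfp148 did not pass, with differences of 1.11 ± 0.33 and 0.70 ± 0.40 (adjusted p = 0.0228 and 0.182).

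Of 7 genes for RNA and ribosome biogenesis proteins, 3 had a promoter peak and none was called, beside 33.3% of other promoters called higher. Zfp326, part of a complex that couples splicing to transcription, had 0.958 and 3.77 RPKM at P4 and 4.79, 4.49 and 6.07 at P28 (0.99 ± 0.46, adjusted p = 0.105). Zfp638 had 1.5 and 0.786 RPKM at P4 and 4.84, 4.01 and 4.44 at P28 (1.36 ± 0.46, adjusted p = 0.0395), and Zfp106 was the third. Of 5 orthologues of eye disease genes, 3 had a promoter peak, Zfp423, Zfp513 and Zfp644. Zfp513, whose human counterpart is linked to retinitis pigmentosa, had 1.10 and 2.40 RPKM at P4, 7.27 and 3.17 at P10, and 5.91, 4.5 and 6.40 at P28 (1.29 ± 0.42, adjusted p = 0.0312). Zfp644, linked to high myopia, had 4.63 and 0.935 RPKM at P4 and 6.16, 7.03 and 7.17 at P28 (1.24 ± 0.44, adjusted p = 0.0463).

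Of 16 genes for the machinery that KRAB proteins recruit, 12 had a promoter peak and 2 were called higher at P28 (16.7%, beside 33.3% of other promoters), Chd4 of the NuRD complex and the DNA methyltransferase Dnmt3a. Chd4 stood at 1.90 and 1.66 RPKM at P4 and at 8.77, 8.82 and 13.5 at P28, and Dnmt3a at 0.508 and 0.890 and at 11.6, 12 and 12.9. The corepressor gene Trim28 stood at 0.809 and 1.86 RPKM at P4 and 3.15, 3.15 and 4.84 at P28 (1.03, adjusted p = 0.089), and Setdb1 had no read at P4 and 5.62, 4.13 and 3.70 RPKM at P28 (2.44, adjusted p = 0.019).

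Zfp promoters were concentrated on a few chromosomes. Chromosome 7 held 58 members, 35 of them KRAB, which was 7.71% of its 752 protein-coding promoters with a peak. Chromosome 17 held 30 and chromosome 13 held 20. In 17 places at least 3 members followed each other within 250000 bases, and these runs held 91 members. The P28 median was 3.91 RPKM in the runs and 5.57 outside them. Among KRAB members alone it was 3.68 in the runs and 3.6 outside, and among the members without a KRAB match it was 4.92 in the runs (19 members) and 6.15 outside (95). None of these differences was tested.

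The largest run, with 13 members and all of them KRAB, lay at chr13:67081545-67813740. Its median was 0.56 RPKM at P4, 0.73 at P10 and 2.45 at P28, and at P28 it ranged from 1.52 at Zfp58 to 5.16 at Zfp708. None of the 13 was called between P4 and P28, against 29.4% of all KRAB members and 33.3% of other promoters called higher, and 12 had 3 reads or fewer in both P4 libraries. The second run, at chr7:29768552-30121942, held 10 members, 8 of them KRAB. Its median was 0.53 RPKM at P4, 2.05 at P10 and 3.91 at P28, and 4 of its members were called higher at P28 (40%, near the 33.3% of other promoters). A run of 6 members at chr7:6155997-6383295, which includes Zfp787 and Zfp444, stood apart with a P28 median of 12.6 RPKM, from 2.57 at Zfp28 to 17.7 at Zfp787. Neighbours in a run therefore reached unlike levels.

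**Figure D5:**
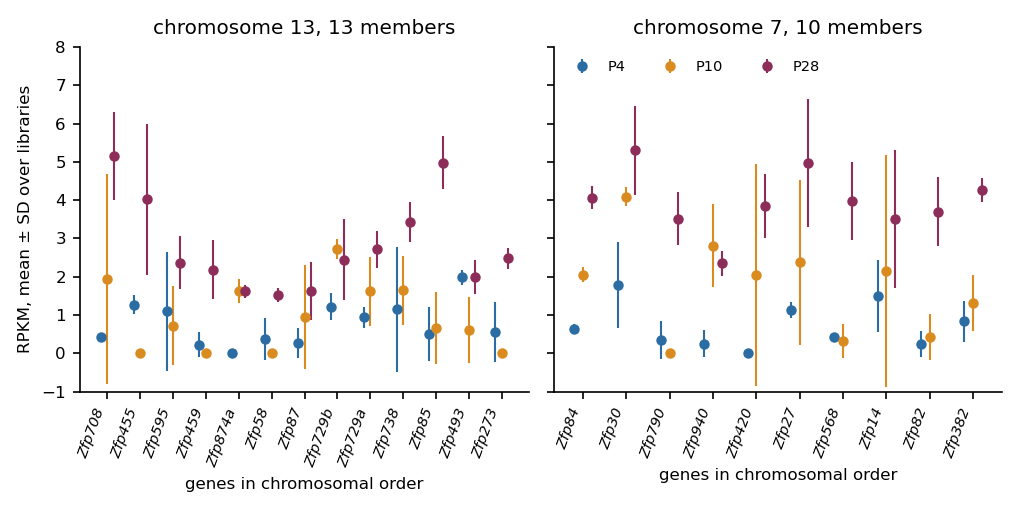
Mean RPKM ± SD over the libraries of each age for the members of the 2 largest runs, in chromosomal order, at P4 (n = 2), P10 (n = 2) and P28 (n = 3). P28 means lie between 1.52 and 5.16 in the run on chromosome 13, where Zfp493 has a P4 mean about level with its P28 mean.

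Other zinc finger families were set beside the members. The 16 Zscan and Zkscan genes, which carry a SCAN domain and often a KRAB box, had a P28 median of 3.79 RPKM, near the 3.66 of KRAB members. The 30 Zbtb genes, with a BTB domain, had 5.45, and the 14 Klf genes, with 3 fingers, had 10.8. At P4 the medians were 0.84, 1.59 and 5.21. The median P28 minus P4 difference was 1.46 for Zscan and Zkscan, 1.18 for Zbtb and 0.91 for Klf genes, against 1.43 for KRAB members, and no test was made between families. With ages at or under 3 reads set to 3 reads, the values were 0.60, 1.13, 0.91 and 0.82, so the order of the families depends on how low reads are treated.

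Zfp genes also had H3K18La peaks outside their promoters. Of 986 peaks annotated to 318 Zfp genes, 445 were in introns, 137 were distal intergenic, 40 were in exons and 22 in 3′ UTRs. Of the intronic peaks, 127 (28.5%) were called higher at P28 and 7 (1.57%) lower, against 19.4% and 3.02% of intronic peaks of other genes. These intronic peaks came from only 69 Zfp genes, with peaks of the same gene counted separately, and the difference was not tested. Of the 257 promoter peaks of protein-coding transcripts of Zfp genes, 35.8% were called higher and none lower, against 33.6% and 0.295% at other genes. Of the 73 promoter peaks of their other transcripts, 15.1% were called higher and none lower, against 27.3% and 1.86% at other genes. The peaks in exons and 3′ UTRs had median levels of 2.90 and 2.84 RPKM at P28. Of these 62 peaks, 5 belonged to KRAB members and 26 to members with 5 or more fingers and no KRAB.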

How the data were processed

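H3K18La CUT&Tag libraries from mouse retina at P4 (2), P10 (2) and P28 (3) were analysed from the deposited peak table. The study's text speaks of 3 replicates in the choice of peaks, whereas 2 labelled libraries were analysed here at P4 and at P10. As deposited, the authors had aligned reads to GRCm38, called peaks with MACS (-log10 q over 6 in at least 2 replicates of an age), annotated them with ChIPseeker 1.34.1 on Ensembl release 102 (promoter from -1000 to 500) and computed RPKM values with library sizes normalised over windows of 10000 bases. The authors' own differential results, made with edgeR 3.40.2, hold log2 fold changes and p-values and were not used.

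RPKM times peak width gave whole reads, within 0.01 read, for all values. Differences between ages were fitted to log2(RPKM + 1) with limma 3.58.1 in R 4.3.3 (trend, all 108253 peaks and 7 libraries in a single fit, no block), with Benjamini-Hochberg adjustment over all peaks and a threshold of 0.01. The fit was tried on simulated data for P28 against P4 only, with changes added at peaks of high mean RPKM. Recovery at levels as low as those of the median member was not tested. Fold changes on this scale understate the change of low genes. A fold against 0 reads was computed against 3 reads per library. KRAB boxes, fingers and promoter sequences were read from GENCODE and the GRCm38 genome.

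Named members were the 8 largest called rises at P28 and the 5 largest at P10 without overlap between the ages, the 4 highest at P28 and at P4, the 3 lowest at P28, the 6 with most reads at P4 and the members of gene lists. The members and lists were chosen with earlier results of these data known. Alternatives covered the pseudocount, a filter on low values, 3 scalings, a replicate block, library weights, the libraries in the fit, limma-voom on recovered reads, the peak taken per gene, the threshold and each library left out. Leaving out a library of P4 or P10 left a single library at that age, so the spread then came from the other ages.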

Additional observations from a re-analysis of the deposited data

How the results depend on the processing

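Against 81 members called between P4 and P28, scaling to reads in peaks called 18, median centring 47, quantile normalization 42, the replicate block 38, the libraries of only the 2 ages 146, library weights 152, limma-voom 139 and a threshold of 0.05 145, and leaving out a library gave 18 (without P4 replicate 2) to 146 (without P10 replicate 2). Members were called less often than other promoters with scaling to reads in peaks (7.73% against 10.6%), median centring (20.2% against 23.2%), quantile normalization (18% against 20.3%) and the replicate block (16.3% against 18.8%), and more often with the 2 ages (62.7% against 56.2%), library weights (65.2% against 57.6%), limma-voom (59.7% against 54.6%) and the threshold of 0.05 (62.2% against 56.4%), differences that were not tested. Between P4 and P10, where the share of members called was below that of other promoters under every setting that called any, the count of 19 became 9 with scaling to reads in peaks, 3 with quantile normalization, 0 with only the 2 ages, 4 with library weights, 47 at 0.05, and 3 to 26 with a library left out. Between P10 and P28 the count of 0 became 5 with a pseudocount of 0.1 (2.15% against 0.494% of other promoters), 2 with median centring (0.858% against 1.34%), 10 with limma-voom (4.29% against 5.07%), 48 at 0.05 (20.6% against 15.6%), and 0 to 55 with a library left out, 55 being without P10 replicate 2 (23.6% against 20.2%). Across ages the count of 69 (29.6% against 29.3% of other promoters) became 42 with the pseudocount (18% against 17.8%), 16 with reads in peaks (6.87% against 10.6%), 25 with quantile normalization (10.7% against 13%), 25 with the replicate block (10.7% against 15%), 142 with library weights (60.9% against 53.4%), 132 with limma-voom (56.7% against 51.7%), 146 at 0.05 (62.7% against 58.2%), and 2 (without P4 replicate 2, 0.858% against 2.4%) to 158 (without P10 replicate 2, 67.8% against 60.8%) with a library left out. Deviations of same-numbered libraries from their age means had correlations from -0.001 to 0.047. With 2 libraries at P4 and at P10 and few reads per peak, these cannot decide whether the numbers pair samples. The median member change, in the order pseudocount 0.1, reads in peaks, median centring and quantile normalization, was 2.16, 0.49, 0.93 and 0.96 for P28 minus P4, 0.67, -0.26, 0.21 and 0.32 for P10 minus P4, and 1.24, 0.76, 0.67 and 0.62 for P28 minus P10. Leaving out a library moved it from 0.46 to 0.72 for P10 minus P4 and from 0.74 to 0.99 for P28 minus P10. The level of members against other promoters, averaged over the 7 libraries, moved from -0.19 to -0.27 with the pseudocount and -0.25 with quantile normalization, and at P4 alone from -0.27 to -0.44 and -0.545. Directions of P28 minus P4 turned with scaling to reads in peaks at Zfp521 (-0.33), Zfp41 (-0.68), Zfp277 (-0.93), Zfp551 (-0.64), Zfp654 (-0.084), Zfp57 (-0.59), Zfp703 (-0.42), Zfp804a (-0.087), Zfp326 (-0.15), Zfp148 (-0.48), Zfp91 (-0.24) and Trim28 (-0.0064). They turned with quantile normalization at Zfp521 (-0.68), Zfp41 (-0.85), Zfp277 (-1.03), Zfp551 (-0.064), Zfp654 (-0.18), Zfp57 (-0.22), Zfp703 (-0.28), Zfp148 (-0.016) and Zfp91 (-0.23), and with median centring at Zfp277 (-0.084), Zfp551 (-0.31) and Zfp57 (-0.096). Zfp13 and Zfp423 turned to 0.26 and 0.18 with library weights and to 0.48 and 0.34 with the mean over promoter peaks. With a library left out Zfp13 ran from -0.19 to 0.28, Zfp57 from -0.12 to 0.97 and Zfp423 from -0.33 to 0.30. The calls checked were those of the named members defined above, Zfp661, Chd4 and Dnmt3a, and of these only Zfp654 turned under any of these settings. Called members printed for their sequence, such as Zfp1, Zfp84, Zfp790 and Zfp454, were not among those checked. Of the 28 checked calls for P28 against P4, 12 stayed with scaling to reads in peaks, 15 with quantile normalization, 21 with the replicate block and all 28 with library weights. Of 5 named calls for P10 against P4, 2 stayed with scaling to reads in peaks, 5 with the replicate block and none with only the 2 ages. The cause of these shifts was not tested. At P4, 53.2% of members had 3 reads or fewer in each library, and the size of difference detectable at this depth was not tested.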
